A study of Homo sapiens with 9 samples.

Results

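The ID proteins and the genes of the BMP-SMAD feedback loop were examined in the Ramos line, which was derived from a human Burkitt's lymphoma. The set held 9 genes, ID1, ID2, ID3, SMAD1, SMAD4, SMAD5, SMAD6, SMAD7 and BAMBI, of 20046 genes with a named probe on the array. Every probe annotated to them was read, 15 of 47323 probes in all. The genes were proposed after a low ID1 signal had been seen in HDL NP-treated cells, so each comparison with HDL NPs is a description of the members and carries no test for them.

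Ramos cells grown in medium with serum were kept for 48 h with 1 of 3 additions, namely HDL NPs, human HDL or PBS, the particles each at 40 nM. RNA of 3 biological replicates per condition was read on Illumina HT-12 bead arrays. HDL NPs are built on a gold nanoparticle core that carries apolipoprotein A-I and phospholipids and little cholesterol. Human HDL is the natural, cholesterol-rich particle given at the same molar dose, and PBS is the vehicle. All 9 arrays come from a single cell line, which limits them as a model of lymphoma.

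Mean bead intensity was 228 to 278 per array, and 33.9% to 38.1% of the probes were above background, that is, had a detection p under 0.05. HDL NP replicate 1 stood apart, where 536 genes differed from the PBS mean by 1 log2 unit or more, against 6 on each of HDL NP replicates 2 and 3 and 0 to 5 on the 6 human HDL and PBS arrays, here called control arrays. Members that rest on it are therefore given with and without it. CD79A, CD79B, MS4A1 and CD22, markers of B cells, were above background on all 9 arrays, while PAX5 was above background on none. Of 14 markers of T cells, myeloid cells and endothelial or stromal cells, none was above background on all arrays, but 8 were on some, CD14 on 8 arrays at 95.8 to 118 and LYZ on 7. The summed intensity of the 5 myeloid markers was 471 to 501 on the HDL NP arrays, 470 to 490 on the human HDL arrays and 466 to 505 on the PBS arrays. In the same order, the sum of 5 B cell markers was 8120 to 9000, 8550 to 9060 and 8870 to 10200. That of 3 germinal centre B cell markers, BCL6, MME and CD38, was 1500 to 3150, 1410 to 1470 and 1300 to 1810.

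ID1, ID2 and ID3 are helix-loop-helix proteins without a DNA-binding region. They pair with E proteins such as TCF3, TCF4 and TCF12 and keep them off DNA. In B cells, E proteins drive the genes of B cell identity, and in Burkitt's lymphoma ID3 is often mutated, which frees TCF3. BMP ligands act through receptor kinases that phosphorylate SMAD1 and SMAD5, and these enter the nucleus with SMAD4 and switch on a short list of targets, the ID genes first among them. SMAD6, SMAD7 and BAMBI are induced by the same signal and dampen it, SMAD6 and SMAD7 as inhibitory SMADs and BAMBI as a receptor decoy without kinase activity.

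The promoters of ID1, ID2, ID3 and SMAD6 are shown because these 4 genes had the lowest log2 fold changes of the members in HDL NP against PBS. Each line gives the 250 bases before the annotated start from RefSeq (GRCh38.p14), 5′ to 3′ on the strand of the gene. The windows are chr20:31605039-31605288 (plus strand) for ID1, chr2:8681806-8682055 (plus strand) for ID2, chr1:23559502-23559751 (minus strand) for ID3 and chr15:66701986-66702235 (plus strand) for SMAD6. Capitals mark GTCT on either strand, the core letters that SMAD4 and SMAD3 bind, which read AGAC on the other strand.
ID1: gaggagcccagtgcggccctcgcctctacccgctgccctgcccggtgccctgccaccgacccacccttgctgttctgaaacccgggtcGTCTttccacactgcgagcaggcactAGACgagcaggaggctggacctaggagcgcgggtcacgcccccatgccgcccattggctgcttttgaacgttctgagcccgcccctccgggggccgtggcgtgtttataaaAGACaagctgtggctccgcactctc
ID2: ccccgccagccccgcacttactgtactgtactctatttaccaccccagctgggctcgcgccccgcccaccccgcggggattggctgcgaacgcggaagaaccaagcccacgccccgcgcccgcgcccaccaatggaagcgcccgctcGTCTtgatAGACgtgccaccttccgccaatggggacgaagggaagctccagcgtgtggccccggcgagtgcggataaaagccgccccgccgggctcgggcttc
ID3: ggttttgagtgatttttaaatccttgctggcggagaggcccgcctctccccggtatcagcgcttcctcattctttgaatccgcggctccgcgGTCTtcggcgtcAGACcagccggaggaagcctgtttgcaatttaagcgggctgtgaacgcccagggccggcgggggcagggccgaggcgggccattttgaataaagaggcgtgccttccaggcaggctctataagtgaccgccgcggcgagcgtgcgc
SMAD6: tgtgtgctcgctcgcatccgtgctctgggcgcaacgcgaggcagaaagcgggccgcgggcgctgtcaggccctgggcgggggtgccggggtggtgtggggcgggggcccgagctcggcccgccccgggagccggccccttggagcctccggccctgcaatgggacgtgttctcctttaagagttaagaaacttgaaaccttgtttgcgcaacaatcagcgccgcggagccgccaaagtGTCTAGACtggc
In ID2 a GTCT and an AGAC began 103 and 95 bases before the start, in ID3 158 and 146 bases, and in ID1 162 and 136 bases with a further AGAC at 25 bases. In SMAD6 both lay side by side as GTCTAGAC, 12 bases before the start. That 8-letter form was looked for after the windows had been read, and it occurred in 0.182% of 35116 promoter windows of the same length. GTCT alone was in 6 of the 7 members with 1 annotated start and in 77.5% of all windows. GGCGCC, a GC-rich form bound by SMAD1 and SMAD5, was in SMAD4 and BAMBI, 2 of the 7, and in 16.4% of all windows. Of the other planned motifs, CANNTG (N being any base) was in 2 of the 7 and in 61.8% of all windows. TGACGTCA was in 0 of the 7 and in 1.65% of all windows. These 7 windows had a GC content of 62.0% to 81.2%, against a median of 58.0% over all windows, and a match of letters is not a bound site.

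ID1 was the member that differed most after HDL NP treatment. Its kept probe had an intensity of 89.7, 85.2 and 87.1 on the HDL NP arrays, against 156, 153 and 137 on the human HDL arrays and 157, 178 and 150 on the PBS arrays. The detection p-values were 0.634, 0.865 and 0.645 on the HDL NP arrays and 0 on each of the 6 control arrays. ID1 was thus not above background on any HDL NP array. The 3 HDL NP arrays lay together at the level of probes without signal, and no control array came near them. On the log2 scale ID1 averaged 4.21 ± 0.03 in HDL NP-treated cells, 6.34 ± 0.18 in human HDL-treated cells and 6.46 ± 0.02 in PBS-treated cells (SD, n = 3 each). Because the HDL NP value has only an upper limit, the difference is a bound, set against the lowest signal among probes above background on each array (mean log2 value 4.54). On values with background subtracted and an offset of 16, ID1 was at least 3.78-fold lower in HDL NP-treated cells than after PBS. It was at least 3.48-fold lower than after human HDL. These bounds hold for that processing only. On the deposited intensities, which include background, the log2 differences were −0.89 against PBS and −0.77 against human HDL. The fitted log2 fold changes, which depend on the same offset, were −2.25 (standard error 0.12) against PBS and −2.13 (standard error 0.12) against human HDL.

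Even at its bound, a log2 difference of −1.92 against PBS and −1.80 against human HDL, ID1 lay below the fitted values of all other genes of the 10307, with GPX1 next at −1.38 and −1.33. This rank describes a gene chosen for its low value. Of 10568 named probes above background on all 6 control arrays, 2 were above background on none of the HDL NP arrays, the ID1 probe and a probe of PPP1R14A that had 94.9 to 96.1 on the HDL NP arrays and 103 to 112 on the control arrays. ID1 passed the filter on dim probes, detection on at least 3 of 9 arrays, only through the control arrays. A second ID1 probe gave no signal in any condition, with 87.2 to 89.9 on the HDL NP arrays, 90.2 to 92.7 on the human HDL arrays and 87.2 to 97.3 on the PBS arrays. The ID1 result therefore rests on 1 probe.

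**Figure D1:**
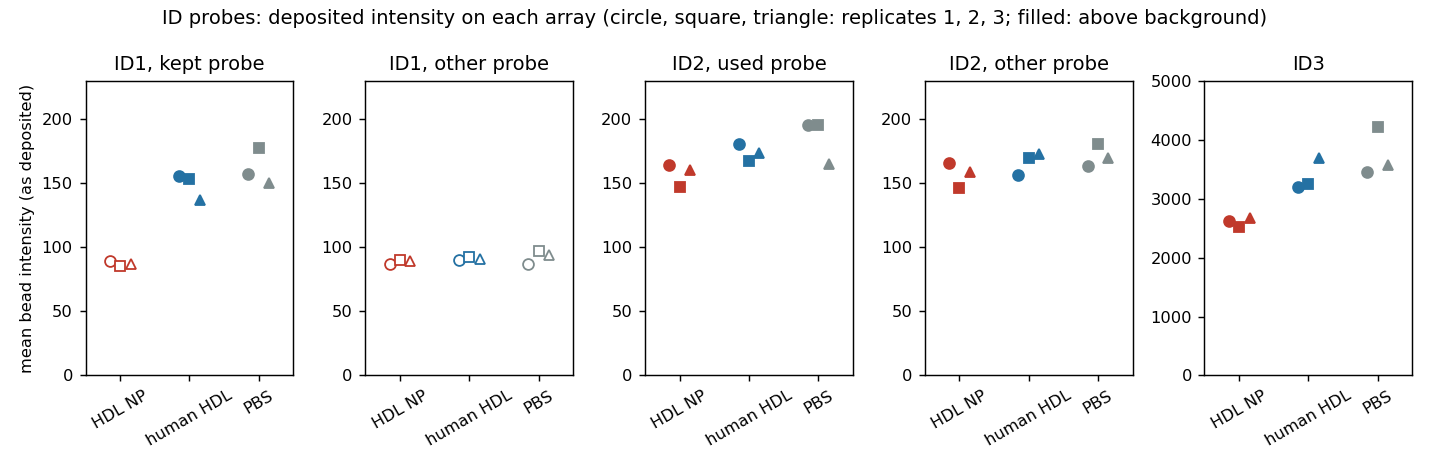
Deposited mean bead intensity (vertical axis, linear) of the 5 ID probes on each array, by condition. Circles, squares and triangles are replicates 1, 2 and 3, and filled symbols are above background. The kept ID1 probe is at 85.2 to 89.7 and not above background on the HDL NP arrays and at 137 to 178 on the control arrays, while the other ID1 probe is at 87.2 to 97.3 on all 9. The ID3 axis has its own scale.

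ID3, the family member most tied to B cells, was well above background on all 9 arrays. Its intensity was 2628, 2517 and 2674 on the HDL NP arrays, against 3204, 3257 and 3689 on the human HDL arrays and 3459, 4216 and 3567 on the PBS arrays. All 3 HDL NP arrays were below all 6 control arrays, on the intensities and after normalization. The log2 mean was 11.36 ± 0.11 in HDL NP-treated cells, 11.70 ± 0.11 in human HDL-treated cells and 11.77 ± 0.09 in PBS-treated cells (SD, n = 3 each). The log2 fold change was −0.41 (standard error 0.12) against PBS, or 1.33-fold lower, and −0.34 (standard error 0.12) against human HDL. Without HDL NP replicate 1 the value against PBS was −0.35.

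ID2, which acts on the same E proteins, had 2 probes above background on every array. The brighter probe had an intensity of 165, 147 and 160 on the HDL NP arrays, 181, 168 and 174 on the human HDL arrays and 196, 195 and 165 on the PBS arrays. The HDL NP arrays were below all control arrays, though by little on the intensities, where HDL NP replicate 1 and PBS replicate 3 both read 165. The log2 fold change was −0.49 (standard error 0.15) against PBS and −0.46 (standard error 0.15) against human HDL, and without HDL NP replicate 1 it was −0.34 against PBS. The other ID2 probe had 166, 146 and 159 on the HDL NP arrays, 157, 170 and 173 on the human HDL arrays and 163, 181 and 170 on the PBS arrays. It overlapped between the groups on the intensities and had a log2 difference of −0.32 from PBS.

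SMAD6, the inhibitory SMAD that acts mainly on the BMP branch, was dim but above background on all 9 arrays. Its log2 values were 5.33, 5.18 and 5.20 on the HDL NP arrays, 5.65, 5.55 and 5.66 on the human HDL arrays and 5.83, 5.33 and 5.54 on the PBS arrays. All HDL NP arrays were below all human HDL arrays, while HDL NP replicate 1 and PBS replicate 2 met at 5.33. The log2 fold change was −0.33 (standard error 0.14) against PBS and −0.38 (standard error 0.14) against human HDL. Before normalization the groups overlapped, with an intensity of 127 on HDL NP replicate 1, 120 on each human HDL array and 115 to 129 on the PBS arrays. Left-out arrays moved the SMAD6 value against PBS between −0.44 and −0.20, the first without PBS replicate 2 and the other without PBS replicate 1.

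SMAD7 and BAMBI lay at the edge of detection, and for both the HDL NP arrays overlapped those of human HDL and PBS. SMAD7, the inhibitory SMAD of both the BMP and the TGF-beta branch, was above background on 3 of 9 arrays, HDL NP replicate 1 and PBS replicates 1 and 3, and its second probe on none. Its log2 fold change was −0.21 (standard error 0.13) against PBS. BAMBI was above background on 8 of 9 arrays with intensities of 95.1 to 110, and was at −0.20 (log2 fold change against PBS, standard error 0.12). Against human HDL the log2 fold changes were −0.02 (standard error 0.13) for SMAD7 and −0.13 (standard error 0.12) for BAMBI. On the deposited intensities the log2 differences from PBS were −0.07 and −0.05. Both genes lie near the floor of the log2 scale, where the offset shrinks differences in either direction.

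SMAD1, SMAD5 and SMAD4 carry the signal to the nucleus, and none of them had HDL NP arrays apart from the controls. SMAD4, the partner shared by all SMAD pathways, had an intensity of 1116, 494 and 574 on the HDL NP arrays, 599.8, 572 and 581 on the human HDL arrays and 626, 708 and 559.7 on the PBS arrays. SMAD5 had 703, 322 and 435 on the HDL NP arrays, 399.8, 416 and 391 on the human HDL arrays and 398, 461 and 338 on the PBS arrays. For both genes HDL NP replicate 1 was the highest of the 9 arrays and HDL NP replicate 2 the lowest. Their log2 fold changes against PBS were 0.12 (standard error 0.16) for SMAD4 and 0.21 (standard error 0.15) for SMAD5, and without HDL NP replicate 1 they were −0.10 and 0.06. SMAD1 was above background on 4 of 9 arrays and was at −0.09 (log2 fold change against PBS, standard error 0.15). The 2 other SMAD5 probes and the other SMAD1 probe were each above background on 1 array.

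**Figure D2:**
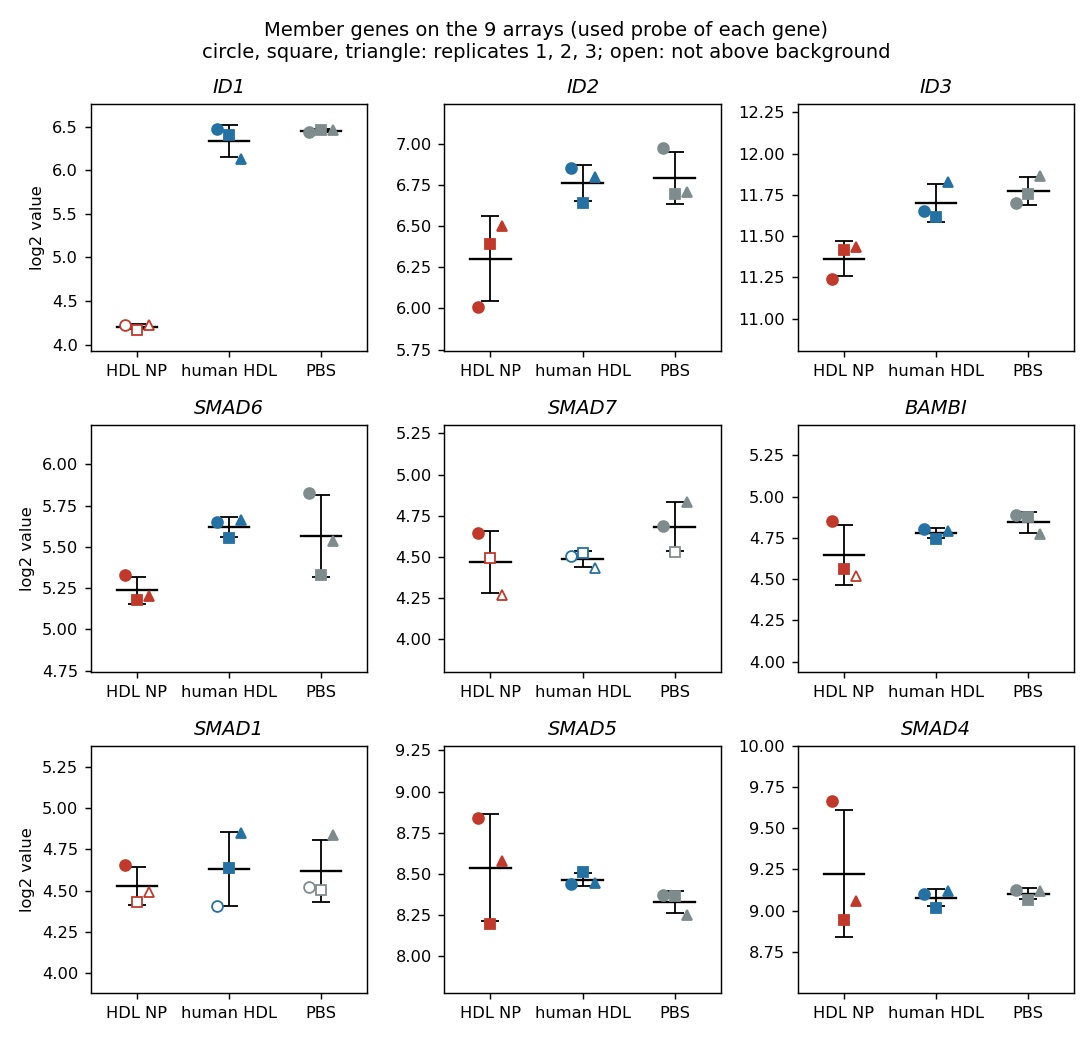
Normalized log2 value (vertical axis, own scale in each panel) of the probe used for each member on each array, by condition. Circles, squares and triangles are replicates 1, 2 and 3, open symbols are not above background, and the lines and bars are the mean and SD of 3 arrays. ID1, ID2 and ID3 are below every control array after HDL NPs, and SMAD4 and SMAD5 are highest on HDL NP replicate 1.

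Over the 9 members, 7 had a negative log2 fold change in HDL NP against PBS, with a median of −0.21, against 0.03 over all 10307 genes. In 3 of the 9, ID1, ID2 and ID3, the HDL NP arrays lay entirely below those of PBS, which was so for 8.5% of all genes. Against human HDL the same held for 4 of 9, with SMAD6 added, and for 10.1% of all genes. Both comparisons use the same HDL NP arrays, and the members were chosen on the PBS comparison, so nothing is read from these shares. In bulk RNA, fewer transcripts per cell and fewer cells that hold the transcript cannot be told apart.

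Human HDL was compared with PBS by limma with Benjamini-Hochberg adjustment over all 10307 genes. The genes were not chosen on this comparison, but it shares the PBS arrays with the one they were chosen on. ID1 averaged 6.34 ± 0.18 after human HDL and 6.46 ± 0.02 after PBS (SD, n = 3 each), a log2 fold change of −0.12 with a 95% confidence interval of −0.38 to 0.14 and a limma adjusted p of 0.9999. The interval for ID2 was −0.35 to 0.29, for ID3 −0.33 to 0.18 and for SMAD6 −0.24 to 0.35. None of the 9 members passed the threshold, as none of all genes did (0% called), and none had an unadjusted p under 0.05 by limma, beside 2.31% of all genes. After normalization, human HDL arrays were all above the PBS arrays for SMAD5 (log2 fold change 0.14) and all below for SMAD7 (−0.20). These were 2 of 9 members, against 9.18% of all genes in either direction. The SMAD5 intensities overlapped, and SMAD7 was above background on no human HDL array. Over the members the 95% confidence limits ran from −0.48 to 0.46. For 1 gene in 3 arrays against 3, exact two-sided permutation cannot give a p below 0.1.

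**Figure D3:**
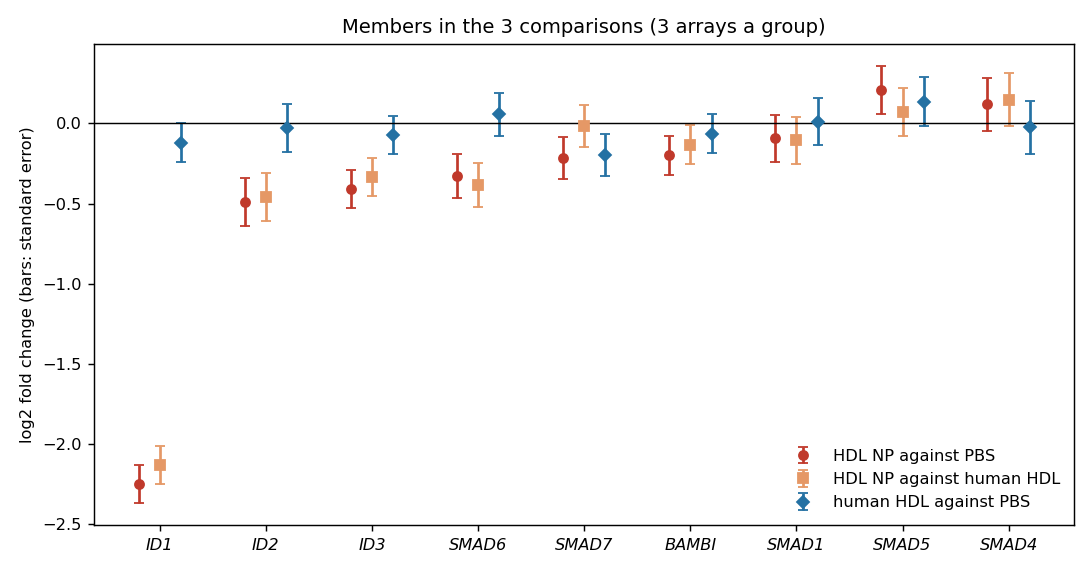
Log2 fold change of each member (vertical axis) in HDL NP against PBS, HDL NP against human HDL and human HDL against PBS, with bars of 1 standard error from limma. The ID1 points for HDL NPs, at −2.25 and −2.13, are fitted values of a gene at background, and the human HDL points lie between −0.20 and 0.14.

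The genes around the members were read from 10 lists that hold 134 genes, of which 71 were measured. In HDL NP against PBS, 2 of the 71 rose and 1 fell at an adjusted p under 0.05, which is 4.23%, beside 0.407% of all genes. In HDL NP against human HDL, 1 rose and 1 fell, 2.82%, beside 0.592% of all genes. The lists were drawn up with earlier results of these data known, so nothing is read from these shares. The 71 had a median log2 fold change of 0.04 against PBS. No gene of the 7 lists from BMP ligands to E proteins and other bHLH factors passed the threshold, nor did any serum and immediate-early gene.

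Upstream of the SMADs, 2 of 14 listed BMP ligands were measured. BMP7, a secreted ligand of the type I receptors, had log2 means of 9.35 ± 0.08 in HDL NP-treated and 9.03 ± 0.22 in PBS-treated cells (SD, n = 3 each), with an adjusted p of 0.31 from limma. BMP3, a ligand that opposes the others, had a log2 fold change of 0.29 (adjusted p = 0.30 from limma). For both, the HDL NP arrays lay above all PBS arrays after normalization, as for 11.7% of all genes, while the intensities overlapped. Among receptors and co-receptors, BMPR2, the type II receptor, had −0.02, RGMB 0.21 and NEO1 −0.01, and the 3 measured antagonists, FSTL3, CER1 and TWSG1, had −0.09 to 0.05. BMPR2 was above background on 6 of 9 arrays and CER1 on 4. The list of SMAD modulators, enzymes and cofactors that turn SMADs over or help them act, had 18 measured genes with a median of 0.04. LEMD3, an inner nuclear membrane protein that binds SMADs and restrains them, was at 8.65 ± 0.22 in HDL NP-treated and 8.14 ± 0.06 in PBS-treated cells (SD, n = 3 each), a log2 fold change of 0.51 with an adjusted p of 0.15 from limma. EP300, an acetyltransferase that SMADs recruit, had 0.50, and 0.26 without HDL NP replicate 1. RNF111, a ubiquitin ligase that removes SMAD7 and other brakes on the pathway, had −0.23, and −0.16 without HDL NP replicate 1. In the TGF-beta and activin branch, TGFBR2, SMAD3 and ACVR1B had 0.26, 0.16 and 0.07, with adjusted p from limma of 0.36 and above.

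Other targets of BMP-SMAD signals did not pass the threshold either. HEY2 and HES1, repressors of the Hairy family, had log2 fold changes of −0.26 and −0.10 in HDL NP against PBS, and JUNB had −0.21. Adjusted p from limma was 0.39 or above for the 5 measured genes of this list. TCF3, the E protein that ID3 holds in check, was at 9.44 ± 0.05 in HDL NP-treated and 9.44 ± 0.08 in PBS-treated cells (SD, n = 3 each). TCF4 and TCF12 had −0.10 and 0.31, each with a wide spread on the HDL NP arrays (SD 0.46 and 0.47), and −0.36 and 0.05 without HDL NP replicate 1. Without HDL NP replicate 2, TCF4 was at 0.08. LYL1, a bHLH partner of E proteins, had −0.34 with an adjusted p of 0.31 from limma. Its HDL NP arrays lay below the PBS arrays after normalization, as for 8.5% of all genes, but not on the intensities.

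Among 13 measured E protein target genes of B cells, 1 fell in HDL NP against PBS and 12 did not pass the threshold. PTPN6, the phosphatase SHP-1, which TCF3 is known to repress in Burkitt's lymphoma cells, had an intensity of 109.6, 108 and 108 on the HDL NP arrays, 132, 134 and 132 on the human HDL arrays and 124, 147 and 128 on the PBS arrays. It fell by 0.77 on the log2 scale against PBS (adjusted p = 0.035 from limma) and by 0.90 against human HDL (adjusted p = 0.013 from limma). VPREB3, chosen here after its value was seen, had the lowest log2 fold change of the lists, −1.05, which did not pass (adjusted p = 0.16 from limma). Its log2 values were 5.13, 6.83 and 6.40 on the HDL NP arrays and 7.12 to 7.21 on the PBS arrays. BCL6, picked in the same way, had the highest value of this list, 0.50, which did not pass either (adjusted p = 0.18 from limma). Its HDL NP arrays lay above all PBS arrays after normalization, as for 11.7% of all genes. The list as a whole had a median of 0.08.

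Serum and immediate-early genes, which growth factors switch on within minutes and which include known triggers of ID1 transcription, had 10 measured members with a median of −0.13. EGR1, a zinc finger factor that can drive ID1, was dim, with intensities of 102 to 118. It had a log2 fold change of −0.31 (adjusted p = 0.26 from limma), with all HDL NP arrays below all PBS arrays, as for 8.5% of all genes. KLF2 had −0.36 and ATF3, a stress-induced repressor of ID1, had 0.29, with adjusted p of 0.28 and 0.32 from limma. For ATF3 the HDL NP arrays lay above all PBS arrays after normalization, as for 11.7% of all genes, while the intensities overlapped.

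The last list held cell cycle inhibitors and ETS factors tied to ID proteins, of which 2 of 7 measured genes rose in HDL NP against PBS. CDKN1A, the cell cycle inhibitor p21, which E proteins switch on and ID proteins restrain, had an intensity of 3156, 2104 and 2113 on the HDL NP arrays, 1499.6, 1596 and 1469 on the human HDL arrays and 1617, 1664 and 1491 on the PBS arrays. All HDL NP arrays were above all control arrays. CDKN1A rose by 0.74 on the log2 scale against PBS (adjusted p = 0.047 from limma) and by 0.73 against human HDL (adjusted p = 0.040 from limma). ETS1, a transcription factor that ID proteins can bind and inhibit, had an intensity of 2876, 1834 and 1881 on the HDL NP arrays, 1567, 1407 and 1521 on the human HDL arrays and 1358, 1661 and 1232 on the PBS arrays, and rose by 0.74 (adjusted p = 0.049 from limma). Against human HDL the ETS1 value was 0.57, which did not pass (adjusted p = 0.10 from limma). The 5 other genes did not pass in HDL NP against PBS, with adjusted p from limma of 0.34 and above. CDKN2A was at −0.71, with an SD of 1.19 on the HDL NP arrays, CDKN1C at −0.18 and CDKN1B at −0.09. RB1 was at 0.23 and ETS2 at 0.29. The list as a whole had a median of 0.23.

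These 3 calls were close to the threshold. Each kept its direction when any array was left out and stayed called without HDL NP replicate 1, at −0.64 for PTPN6, 0.62 for CDKN1A and 0.60 for ETS1 (adjusted p = 0.031, 0.034 and 0.034 from limma). Each lost the call in 7 of 9 cases, without HDL NP replicate 3 or without any 1 of the human HDL or PBS arrays, with adjusted p of 0.078 to 0.24 from limma. With the replicate number as a block, none of the 3 passed, at adjusted p = 0.051, 0.070 and 0.070 from limma for PTPN6, CDKN1A and ETS1. In human HDL against PBS, 0 of the 71 genes passed by limma and 2 had an unadjusted p under 0.05 there. The lists were drawn up with earlier results of these data known, so their calls are not independent support for any direction of the members.

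**Figure D4:**
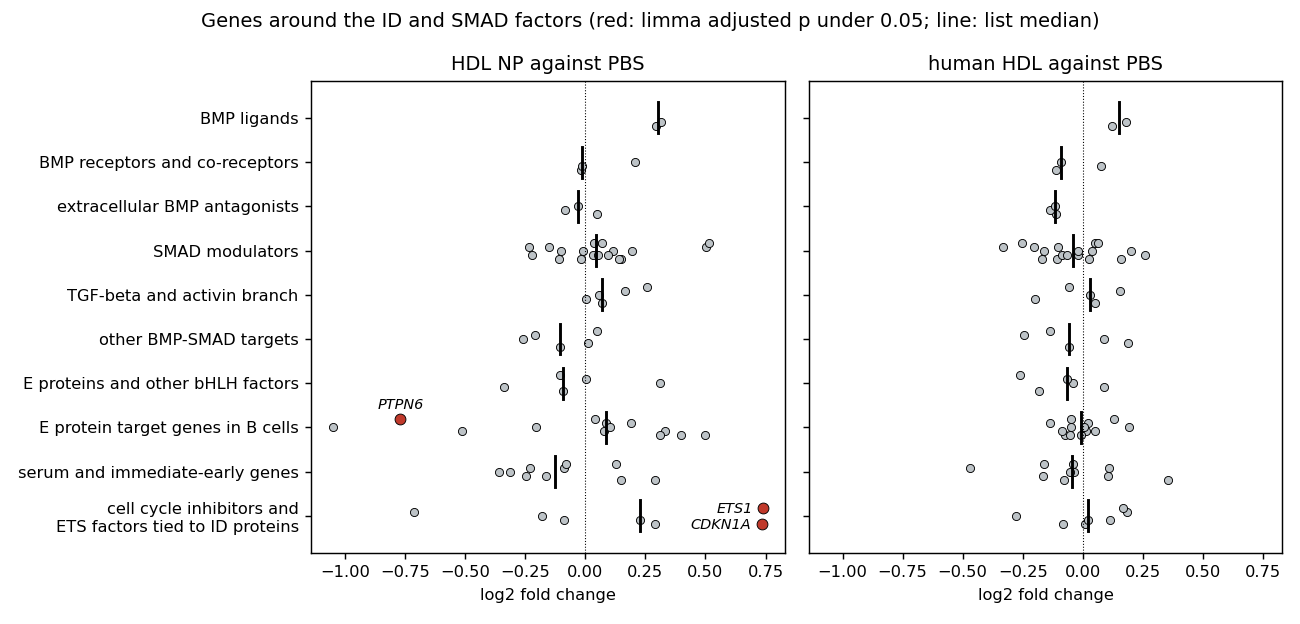
Log2 fold change (horizontal axis) of the 71 measured genes in 10 lists, in HDL NP against PBS and in human HDL against PBS. Each point is a gene, black lines are list medians, and the named red points, PTPN6, CDKN1A and ETS1, passed an adjusted p under 0.05 in limma, with none in human HDL against PBS.

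The genes whose log2 values followed ID1 most closely over the 9 arrays were NFKBIA (Pearson r = 0.977), IMPA2 (0.976), ACAT1 (0.975), LRRC28 (0.974) and MTIF3 (0.973). NFKBIA, which encodes the NF-kappaB inhibitor IκBα, was at 8.32 to 8.46 on the HDL NP arrays and at 8.79 to 8.97 on the control arrays. The genes most opposite to ID1 were LSS (−0.984), ALPP (−0.983), NSDHL (−0.976), HMGCS1 (−0.971) and DHCR7 (−0.968), of which LSS, NSDHL, HMGCS1 and DHCR7 encode enzymes of cholesterol synthesis. LSS was at 8.68 to 8.83 on the HDL NP arrays and at 7.57 to 7.84 on the control arrays. Within the set, r with ID1 was 0.87 for ID3, 0.82 for ID2, 0.78 for SMAD6, 0.64 for BAMBI, 0.39 for SMAD7 and 0.25 for SMAD1, and −0.31 for SMAD4 and −0.37 for SMAD5. These correlations describe 9 arrays that share their normalization and fall into 3 HDL NP arrays and 6 control arrays, and they were not computed within either part.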

How the data were processed

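For 47323 probes on 9 arrays the authors deposited the mean intensity over beads with its detection p-value, neither background-subtracted nor normalized between arrays. The deposited p-values rank a probe among 770 negative controls. A second deposited table, read as a signal per probe and array, has unknown unit, scale and centring, may hold an error over beads in place of expression, and served only as an alternative. The study took a fold over 1.5 and p under 0.05 as significant and the sources used here name no array normalization.

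Log2 values were computed with limma 3.58.1 (R 4.3.3) by neqc, which estimates the negative controls out of the detection p-values, adds an offset of 16 and normalizes by quantiles. Near background the offset understates fold changes. Probes with a detection p under 0.05 on at least 3 of 9 arrays were kept, 18185 in all, among them 10 of the 15 probes of the members, and the brightest of these stood for its gene (10307 genes). Of all probes, 30113 carried 1 symbol, 8 several and 17202 none. One model of condition was fitted to the 9 arrays with lmFit and eBayes (12.3 total degrees of freedom), and genes were called at an adjusted p under 0.05. Levels of different probes were not compared, and precision is limited by the number of arrays. The pipeline was tested on simulated data.

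Named genes are every member, up to 4 called genes of each list or else up to 3 with the largest change in HDL NP against PBS, and the 5 genes most and least correlated with ID1. TCF3, VPREB3, BCL6, CDKN2A, CDKN1B, CDKN1C, RB1 and ETS2, outside this rule, were picked with their values known. The members and lists were chosen with earlier results of these data known. Some genes of the lists are not reported here. The files give no slide or scan, so no batch was tested. Alternatives were no background correction, an offset of 50, median scaling, the second table, no detection filter or one over all 9 arrays, averaging a gene's kept probes or testing each, a replicate block, array weights, a fit of the groups compared, Student's test and leaving out each array.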

Additional observations from a re-analysis of the deposited data

How the results depend on the processing

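The ID1 log2 fold change in HDL NP against PBS was −2.25, and −0.89 without background correction, −1.21 with an offset of 50, −2.22 with median scaling, −1.10 with the second table, which may hold no measure of expression, and −2.26 to −2.18 with an array left out. ID1 kept its direction in all 19 alternatives that could measure it. It was not measured with detection required on all 9 arrays, where 5 members remained, and SMAD7 was not kept without HDL NP replicate 1 or without PBS replicate 1 or 3. Of the 9 members, 7 were negative with other scalings, 8 with array weights and 4 with the second table, where ID2 was at 0.01 and BAMBI at 0.13. SMAD4 was negative without HDL NP replicate 1 (−0.10) and with array weights (−0.04). PTPN6, dim on every array, was at −0.29 without background correction and −0.43 with an offset of 50, and ETS1 at 0.57 (adjusted p = 0.075 from limma) when its kept probes were averaged.

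Genes called in HDL NP against PBS numbered 42, and 111 without background correction, 120 with an offset of 50, 2 with median scaling, 0 with the second table, 27 with every kept probe tested, 13 with the replicate block, 863 with array weights, 4 with only the groups compared and 1 by Student's test. With an array left out they numbered 4 to 101, the highest without HDL NP replicate 2. For HDL NP against human HDL the count was 61, and 95, 94, 3 and 0 with the first 4 of these settings, 40 with a gene's kept probes averaged, 1128 with array weights, 5 with only the groups compared, 0 by Student's test and 4 to 192 with an array left out. Called genes of the lists in HDL NP against PBS numbered 3, and 0 with median scaling, the second table, the replicate block or only the groups compared, 1 with no filter or with every kept probe tested, 9 with array weights and 0 to 4 with an array left out. By Student's test, 1 of 9 members and 5 of 71 listed genes had an unadjusted p under 0.05 in human HDL against PBS, and 0 after adjustment. The cause of these changes was not tested. The shared replicate numbers were not taken as pairs in the main fit. Deviations of same-numbered arrays correlated at 0.05, −0.08 and 0.16 between HDL NP and PBS. The values were 0.12, 0.06 and 0.17 between HDL NP and human HDL, and 0.14, −0.02 and 0.04 between human HDL and PBS. Of 9 arrays, 7 were closest to an array of their own number in another group. The labels do not say whether same-numbered arrays were pairs, and these values do not settle it.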
